A study of Homo sapiens with 4 samples.

Results

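Prostaglandin E2 (PGE2) is made in steps, and the 10 genes described here encode the enzymes and receptors of those steps: PLA2G4A, PTGS1, PTGS2, PTGES, PTGES2, PTGES3, PTGER2, PTGER4, HPGD and PTGR1. They were taken from the deposited expression table as the rows that carry these gene names, which gave 10 genes of 33880 in all, each with a single row. The libraries come from KGN, an established cell line of a human granulosa-like tumor that has aromatase activity, in which the study asked what forced expression of TOX3 does to estrogen synthesis. The LV-TOX3 group (n = 2) carried a lentivirus with full-length TOX3, which encodes an HMG-box protein of the nucleus, and the LV-CON group (n = 2) carried the control lentivirus. Both viruses held a puromycin resistance gene and were added at a dilution of 1 to 200, and both groups were selected with 2 mg/ml puromycin over 2 passages, with infection checked by green fluorescent protein. RNA enriched on oligo(dT) beads was sequenced. The study's text calls the samples of a group duplicates and independent, but no label tells whether they were grown as separate cultures. The p-values cover the spread between these libraries, which may be technical. No source says whether the selected cells were a pool or a single clone.

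Arachidonic acid is cut from membrane phospholipids by the cytosolic phospholipase A2 that PLA2G4A encodes. The cyclooxygenases PTGS1 and PTGS2 turn it into prostaglandin H2, and the PGE synthases PTGES, PTGES2 and PTGES3 turn that into PGE2. PGE2 leaves the cell and acts on the cAMP-raising receptors EP2 and EP4 (PTGER2 and PTGER4), and HPGD and then PTGR1 inactivate it. In the ovary the luteinizing hormone surge induces PTGS2 in granulosa cells of the preovulatory follicle, and PGE2 takes part in cumulus expansion and follicle rupture.

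The deposited values are RPKM, in which the reads of a gene are divided by its length and by the reads of its library. Each value of the 10 genes was a whole multiple of what 1 read is worth, which let their reads be recovered. The libraries held between 16403371 and 17858746 reads, of which 95.9% to 96.1% lay in genes. TOX3 was at 18.1 and 17.3 RPKM in the LV-TOX3 libraries, while each LV-CON library had 0 reads of it, and the lower LV-TOX3 value was at least 258-fold higher than a floor of 3 reads in an LV-CON library. This bound takes the smallest whole numbers in the ratio of its values as its reads, since its implied length (5031 bases) differs from the annotated one (6754 bases) and leaves the whole factor open. FOXL2, a transcription factor that defines granulosa cells, was at 11.0 and 11.0 RPKM in LV-TOX3 and 10.5 and 10.9 RPKM in LV-CON. The FSH receptor FSHR was at 9.62 and 10.0 RPKM in LV-TOX3, against 5.15 and 5.95 RPKM in LV-CON, and the aromatase CYP19A1 at 13.8 and 7.37 RPKM in LV-TOX3, against 7.08 and 4.25 RPKM in LV-CON. The LV-TOX3 libraries of both genes were above their LV-CON libraries, as in 17.0% of all tested genes. FSHR passed at an unadjusted p under 0.05, as 6.80% of all tested genes did, with a log2 fold change of 0.81 (SE 0.10, 95% interval 0.54 to 1.08), but its limma adjusted p was 0.553. CYP19A1 passed neither threshold (log2 fold change 0.87, SE 0.37, limma adjusted p = 0.734). The inhibin subunit INHA lay between 0.703 and 1.09 RPKM in the 4 libraries. The 10 granulosa markers listed summed to 622 and 756 RPKM in LV-TOX3 and to 613 and 708 RPKM in LV-CON, and none was at 0 in all libraries. Most of this was KRT18, a keratin of simple epithelia in general, at 472 and 622 RPKM in LV-TOX3 and 469 and 573 RPKM in LV-CON. The other 9 markers summed to 151 and 135 RPKM in LV-TOX3 and 144 and 134 RPKM in LV-CON. The lowest of them was AMHR2, with 9 and 7 reads in LV-TOX3 and 4 and 1 reads in LV-CON. Of the 2 theca markers found, CYP17A1 had at most 1 read and INSL3 had 0 reads in each library. The 4 endothelial markers summed to between 0.396 and 0.569 RPKM, with CDH5 at 1 read in a single library. TEK among them had 15 and 26 reads in LV-TOX3 and 28 and 34 reads in LV-CON. The 3 leukocyte markers summed to between 0.575 and 0.763 RPKM, with CD68 at 0 reads. PTPRC made up most of that sum, with 73 and 91 reads in LV-TOX3 and 81 and 114 reads in LV-CON. The 3 epithelial markers summed to 3.04 and 5.55 RPKM in LV-TOX3 and 3.12 and 2.99 RPKM in LV-CON, most of it KRT19. The part of other cells in the values below was not tested, and in RNA of many cells a lower share of expressing cells and less RNA per cell cannot be told apart.

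On the per-length RPKM scale the 10 genes fell into an abundant set of 3 and a scarce set of 7, with no value between 0.899 and 14.3 RPKM. PTGES3, PTGR1 and PTGES2 were the abundant ones, with means over the 4 libraries of 85.0, 42.7 and 15.4 RPKM, and the ranges of these 3 genes did not overlap. The receptors PTGER2 and PTGER4 followed at 0.741 and 0.691 RPKM, and their order was unresolved, since PTGER2 was above PTGER4 in 2 of 4 libraries. PLA2G4A (0.266 RPKM), PTGES (0.167 RPKM) and HPGD (0.117 RPKM) came next with overlapping ranges. PLA2G4A was above PTGES in each of the 4 libraries, while PTGES was above HPGD in 3 of 4. PTGS2 (0.0352 RPKM) and PTGS1 (0.00982 RPKM) closed the order, with ranges that overlapped and PTGS2 above PTGS1 in 4 of 4 libraries. In reads, PTGS2 had at most 5 and PTGS1 at most 2 in a library, against at least 4589 for PTGES3.

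**Figure D1:**
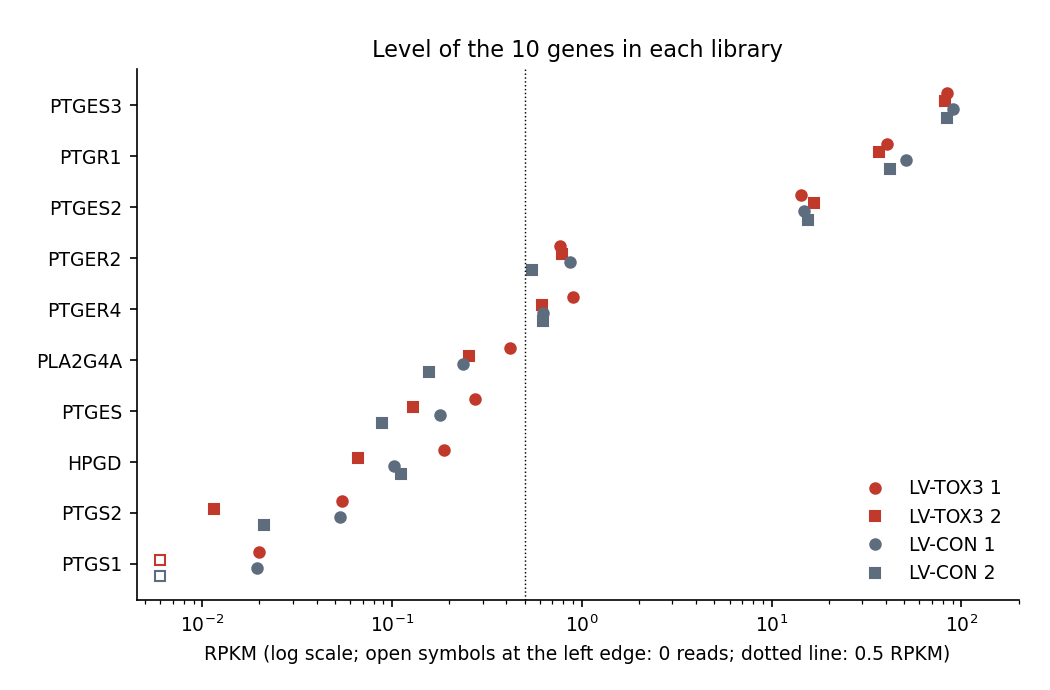
RPKM of each of the 10 genes (log axis) in the LV-TOX3 libraries (red) and the LV-CON libraries (grey), with circles for library 1, squares for library 2 and open symbols for 0 reads; the dotted line is the minimum mean of 0.5 RPKM for testing. PTGES3, PTGR1 and PTGES2 stand far to the right of the other 7 genes, and only PTGR1 and PLA2G4A have both LV-TOX3 symbols on one side of both LV-CON symbols.

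The windows before the start sites are shown for the genes at the ends of this order and for the pair whose groups did not overlap. All 10 genes were found in the RefSeq promoter table (build GRCh38.p14), with 14 windows of 250 bases, since PTGS1 and HPGD have 2 listed starts and PTGES2 has 3. The lines run 5′ to 3′ up to the base before the start, in lower case, and capitals mark a match to a motif on either strand. The motifs searched were the full cAMP response element (CRE) TGACGTCA, its short form CGTCA, which lies within the full form, the TATA box TATAAA, the E-box CACGTG and the GC box GGGCGG. PTGES3 (chr12:56688285-56688534, minus strand) had the highest level, PTGS2 (chr1:186680424-186680673, minus strand) was one of the lowest, and PTGR1 (chr9:111599432-111599681, minus strand) and PLA2G4A (chr1:186828699-186828948, plus strand) are the pair. The starts are those of RefSeq and can differ from the GENCODE gene spans given below. By those spans the PTGS2 and PTGR1 windows lie inside the gene, and the PTGES3 window lies partly inside it.
PTGES3: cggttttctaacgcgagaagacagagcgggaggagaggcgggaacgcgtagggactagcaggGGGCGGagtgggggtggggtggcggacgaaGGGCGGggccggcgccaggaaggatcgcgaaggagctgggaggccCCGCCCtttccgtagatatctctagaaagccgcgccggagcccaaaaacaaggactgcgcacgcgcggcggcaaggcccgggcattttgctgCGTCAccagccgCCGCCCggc
PTGS2: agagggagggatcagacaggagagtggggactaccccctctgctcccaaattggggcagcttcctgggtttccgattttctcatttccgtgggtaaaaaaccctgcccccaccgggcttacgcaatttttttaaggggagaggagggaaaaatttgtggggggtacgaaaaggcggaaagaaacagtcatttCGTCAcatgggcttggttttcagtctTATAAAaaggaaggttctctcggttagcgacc
PTGR1: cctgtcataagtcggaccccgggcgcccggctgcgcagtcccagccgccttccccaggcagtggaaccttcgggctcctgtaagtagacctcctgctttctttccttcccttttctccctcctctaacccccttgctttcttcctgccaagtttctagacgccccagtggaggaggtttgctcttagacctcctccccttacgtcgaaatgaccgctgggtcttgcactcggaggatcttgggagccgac
PLA2G4A: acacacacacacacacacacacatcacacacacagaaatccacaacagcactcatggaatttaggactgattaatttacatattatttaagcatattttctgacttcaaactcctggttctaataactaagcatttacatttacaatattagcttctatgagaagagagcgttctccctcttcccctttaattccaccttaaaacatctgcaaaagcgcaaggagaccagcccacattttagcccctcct

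The PTGES3 window held 4 GC boxes and 1 short CRE, at -21 to -17 from the start, and 30 CpG dinucleotides, against a median of 11 CpG over the 35116 promoters of the table. The PTGS2 window held a short CRE at -58 to -54 and a TATA box at -32 to -27, with 9 CpG. No motif of the search matched in the PTGR1 window, which had 13 CpG, or in the PLA2G4A window, which had 2 CpG and lay at the 14.7th percentile of all promoters for CpG. Among the other genes, PTGER2 had 28 CpG, 2 GC boxes and 1 short CRE, and PTGER4 had 26 CpG and 4 GC boxes. The first of the PTGES2 windows had 29 CpG and 4 GC boxes. The full CRE matched in 0 of the 14 windows and in 1.65% of all promoters, and the short CRE in 4 of the 14 windows and in 21.2% of all promoters. A GC box stood in 10 of the 14 windows and in 42.6% of all promoters, a TATA box in 2 windows and in 10.7%, and an E-box in 1 window and in 6.35%. These matches are descriptions of letters, not binding sites, and a window without a match says only that these letters are not in it.

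**Figure D2:**
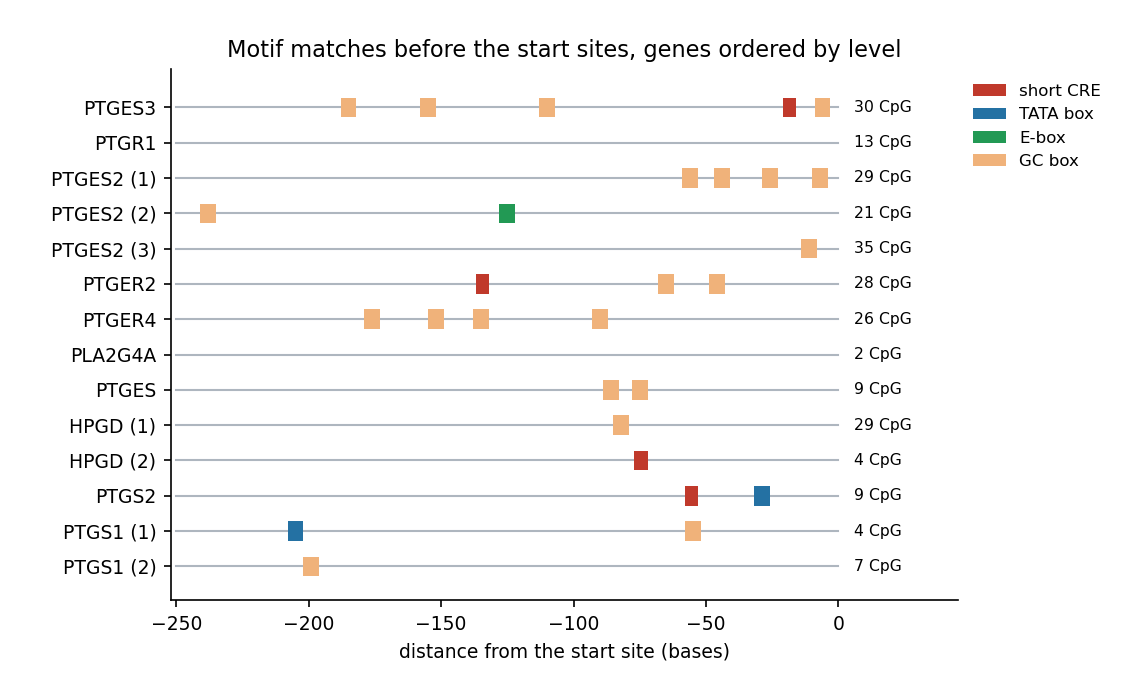
Position of the motif matches in the 250 bases before each listed start (x axis, bases from the start), with genes in order of their mean RPKM from PTGES3 at the top to PTGS1 at the bottom and the number of CpG at the right. Colors give the motif. PTGES3, PTGER4 and the first window of PTGES2 have 4 GC boxes each. PTGS2 is alone with PTGS1 in holding a TATA box, and the lines of PTGR1 and PLA2G4A are empty.

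Between the groups, none of the 10 genes passed, but only 5 of them entered the main test. The test was limma on log2(RPKM + 0.1), two-sided, with Benjamini-Hochberg adjustment over 14184 genes whose mean reached 0.5 RPKM. On this scale the log2 fold change of a scarce gene is understated. Of the 10 genes, 5 reached that mean (PTGES2, PTGES3, PTGER2, PTGER4 and PTGR1), and 0 of the 5 had an adjusted p under 0.05, where 0.00705% of all tested genes did, a single gene, TOX3. At an unadjusted p under 0.05 the count was also 0 of 5, where 965 genes, 6.80% of those tested, passed. The other 5 genes were fitted with no minimum on the mean. In that fit 0 of all genes passed the adjusted p, and TOX3 itself had a limma adjusted p of 0.0804. Adjusted p values over 0.05 there say little about these 5 genes. By limma-voom on the recovered reads, too, 0 of the 5 tested genes passed at the adjusted p. The 5 tested genes had 3 positive and 2 negative log2 fold changes with a median of 0.03, beside a median of -0.01 and 6633 positive and 7551 negative values over all tested genes. With 2 libraries in each group the smallest p of an exact permutation test is 0.33, so no single gene was tested that way.

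Among the 10 genes, release of arachidonic acid is represented by PLA2G4A (ENSG00000116711, chr1:186828949-186988981, plus strand). Its level was 0.419 and 0.254 RPKM in LV-TOX3 and 0.235 and 0.156 RPKM in LV-CON, which stand for 21 and 12 reads in LV-TOX3 and 12 and 8 reads in LV-CON. Both LV-TOX3 libraries were above both LV-CON libraries, although the lower LV-TOX3 value exceeded the higher LV-CON value by less than the gap between the replicates of either group. The group means were 0.337 ± 0.117 RPKM in LV-TOX3 and 0.195 ± 0.0560 RPKM in LV-CON (SD, n = 2 each). Counting error alone allowed 0.131 to 0.444 RPKM for LV-TOX3 library 2 and 0.121 to 0.411 RPKM for LV-CON library 1 (95% exact Poisson intervals), and these intervals overlap over most of their length. PLA2G4A was under the minimum mean, and fitted without it the log2 fold change was 0.55 (SE 0.40, 95% interval -0.60 to 1.70), with a limma adjusted p of 0.781. Among the 5 genes under the minimum it was the only 1 with both LV-TOX3 values above both LV-CON values, beside 14.7% of all genes above 0 under the minimum, and 0 of the 5 lay below in both, beside 9.39%.

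The cyclooxygenases were nearly silent in all libraries. PTGS2 (ENSG00000073756, chr1:186671791-186680922, minus strand) had 5 and 1 reads in LV-TOX3 and 5 and 2 reads in LV-CON, or 0.0545 and 0.0116 RPKM in LV-TOX3 and 0.0534 and 0.0213 RPKM in LV-CON. Library 1 was the higher in both groups, and the groups overlapped. Among the genes above 0 it stood at percentiles 9.42 and 0.877 in the LV-TOX3 libraries and 9.44 and 3.14 in the LV-CON libraries. The fitted log2 fold change of PTGS2 was -0.06 (95% interval -0.90 to 0.79, limma adjusted p = 0.981, no minimum), and the pseudocount is larger than each of its values. PTGS1 (ENSG00000095303, chr9:122370530-122395703, plus strand) had 2 and 0 reads in LV-TOX3 and 2 and 0 reads in LV-CON. The libraries with 0 reads allow up to 0.0316 RPKM in LV-TOX3 and 0.0290 RPKM in LV-CON, the worth of 3 reads, for counting error only. No fold is given for PTGS1, since both groups lie at or under that floor, and a difference was not detectable at this depth.

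Of the PGE synthases, the cytosolic PTGES3 carried most of the transcript. PTGES3 (ENSG00000110958, chr12:56663341-56688408, minus strand), also known as p23, a co-chaperone of HSP90, was at 84.2 and 82.3 RPKM in LV-TOX3 and 89.8 and 83.8 RPKM in LV-CON. It had 4589 to 5421 reads in a library and lay at the 98.4th percentile of the genes above 0 in each of them. LV-TOX3 library 1 lay just above the lower LV-CON library, so the groups overlapped. The log2 fold change was -0.06 (SE 0.07, 95% interval -0.24 to 0.12, limma adjusted p = 0.903), the narrowest interval of the 9 genes given a fold change. PTGES3P1, a processed pseudogene on chromosome 1 that resembles the PTGES3 transcript, had 73 and 54 reads in LV-TOX3 and 71 and 60 reads in LV-CON (8.68 and 6.82 RPKM, against 8.28 and 6.96 RPKM). PTGES3P3 had at most 10 reads in a library. PTGES3L, a related gene, had 1 and 1 reads in LV-TOX3 and 2 and 7 reads in LV-CON, and RN7SL809P, a pseudogene that overlaps PTGES3 on the same strand, had 0 and 2 reads in LV-TOX3 and 1 and 0 reads in LV-CON. Reads of the gene and its copies can be exchanged in counting, so the values of the copies are uncertain.

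PTGES2 (ENSG00000148334, chr9:128120693-128128462, minus strand), the membrane-associated PGE synthase, was at 14.3 and 16.8 RPKM in LV-TOX3 and 14.9 and 15.6 RPKM in LV-CON. The LV-TOX3 libraries enclosed both LV-CON libraries, and library 2 was the higher in both groups. Its log2 fold change was 0.03 (SE 0.10, 95% interval -0.24 to 0.29, limma adjusted p = 0.980). The antisense transcript PTGES2-AS1 had 2 and 2 reads in LV-TOX3 and 2 and 5 reads in LV-CON, against 1516 to 1694 reads of PTGES2. PTGES (ENSG00000148344, chr9:129738331-129753042, minus strand), the microsomal synthase that is induced together with PTGS2 in inflamed tissue, was at 0.273 and 0.129 RPKM in LV-TOX3 and 0.178 and 0.0886 RPKM in LV-CON. These are 9 and 4 reads in LV-TOX3 and 6 and 3 reads in LV-CON, and the groups overlapped. Fitted without the minimum, PTGES had a log2 fold change of 0.35 (95% interval -0.95 to 1.65, limma adjusted p = 0.853).

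Taken as shares of the summed RPKM of the 3 synthases, PTGES3 made up 85.2% and 82.9% in LV-TOX3 and 85.7% and 84.2% in LV-CON. PTGES2 made up 14.5% and 16.9% in LV-TOX3 and 14.2% and 15.7% in LV-CON, and PTGES stayed at or below 0.276% in the 4 libraries. The sums were 98.8 and 99.2 RPKM in LV-TOX3 and 105 and 99.5 RPKM in LV-CON, so both LV-TOX3 sums lay just under the LV-CON sums. No test was made on the shares.

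**Figure D3:**
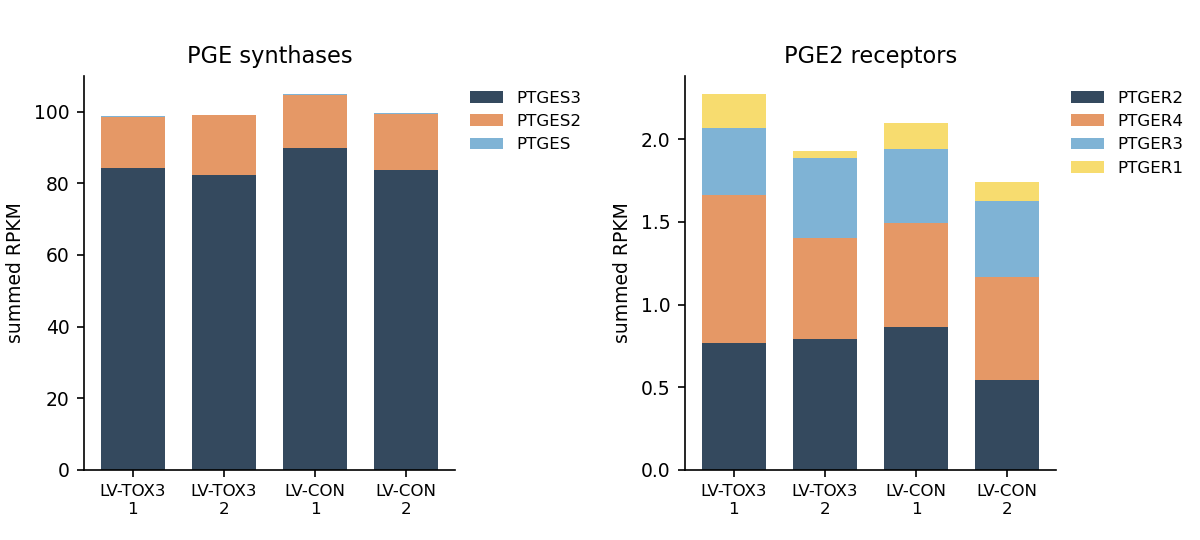
Summed RPKM (y axis, from 0) of the PGE synthases (left) and of the PGE2 receptors (right) in each library, LV-TOX3 libraries first, with colors for the genes. PTGES3 fills over 80% of each synthase bar and PTGES is too thin to be seen, whereas in the receptor bars PTGER2 and PTGER4 have similar parts and their order changes between libraries.

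Of the receptors, PTGER2 (ENSG00000125384, chr14:52314305-52328598, plus strand) was at 0.766 and 0.789 RPKM in LV-TOX3 and 0.865 and 0.543 RPKM in LV-CON. The LV-CON libraries enclosed both LV-TOX3 libraries. Its log2 fold change was 0.16 (SE 0.34, 95% interval -0.73 to 1.04, limma adjusted p = 0.956), on 33 and 32 reads in LV-TOX3 and 38 and 24 reads in LV-CON. PTGER4 (ENSG00000171522, chr5:40679915-40693735, plus strand) was at 0.899 and 0.616 RPKM in LV-TOX3 and 0.626 and 0.622 RPKM in LV-CON. LV-TOX3 library 1 stood above the other 3 libraries, and these 3 lay between 0.616 and 0.626 RPKM. The log2 fold change of PTGER4 was 0.22 (SE 0.34, 95% interval -0.66 to 1.11, limma adjusted p = 0.934). Without LV-TOX3 library 1 it was -0.02, so that 1 library sets its sign. The gene TTC33 runs across PTGER4 on the opposite strand and was at 1.81 and 1.92 RPKM in LV-TOX3 and 1.37 and 1.39 RPKM in LV-CON. Both LV-TOX3 libraries of TTC33 were above both LV-CON libraries, as in 17.0% of all tested genes. As no source says whether strand was used in counting, reads of the overlapping parts cannot be told apart, and the part of TTC33 in the PTGER4 values was not tested.

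With the other PGE2 receptors, PTGER1 and PTGER3, the 4 receptors summed to 2.27 and 1.93 RPKM in LV-TOX3 and 2.10 and 1.74 RPKM in LV-CON. PTGER2 made up 33.7% and 40.9% of the sum in LV-TOX3 and 41.2% and 31.2% in LV-CON. PTGER4 made up 39.6% and 31.9% of it in LV-TOX3 and 29.8% and 35.7% in LV-CON. Either of them led in 1 library of each group, and the groups overlapped for both shares. PTGER3 was at 0.405 and 0.480 RPKM in LV-TOX3 and 0.449 and 0.458 RPKM in LV-CON, and PTGER1 had at most 5 reads in a library.

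Breakdown of PGE2 begins with HPGD (ENSG00000164120, chr4:174490175-174523154, minus strand), the dehydrogenase that oxidizes the prostaglandin. HPGD was at 0.187 and 0.0662 RPKM in LV-TOX3 (18 and 6 reads) and 0.102 and 0.111 RPKM in LV-CON (10 and 11 reads). The LV-TOX3 libraries enclosed both LV-CON libraries, and they differed from each other more than the LV-CON libraries did. Fitted without the minimum, its log2 fold change was 0.08 (95% interval -1.09 to 1.25, limma adjusted p = 0.980). Without LV-TOX3 library 1 the value was -0.31 and without LV-TOX3 library 2 it was 0.47.

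PTGR1 (ENSG00000106853, chr9:111549722-111599893, minus strand), the reductase that acts after HPGD and that also inactivates leukotriene B4, was at 40.7 and 36.9 RPKM in LV-TOX3 and 51.0 and 42.1 RPKM in LV-CON. In reads this was 2638 and 2253 in LV-TOX3 and 3372 and 2801 in LV-CON. Both LV-TOX3 libraries were below both LV-CON libraries, and the gap between the groups, from 40.7 to 42.1 RPKM, was smaller than the gap within either group. The means were 38.8 ± 2.69 RPKM in LV-TOX3 and 46.6 ± 6.28 RPKM in LV-CON (SD, n = 2 each). The exact Poisson intervals of the nearest libraries, 39.2 to 42.3 RPKM in LV-TOX3 and 40.6 to 43.7 RPKM in LV-CON, overlapped. The log2 fold change was -0.26 (SE 0.12, 95% interval -0.56 to 0.04), with a limma adjusted p of 0.742. PTGR1 was the only 1 of the 5 tested genes with both LV-TOX3 values below both LV-CON values, beside 20.6% of all tested genes, and 0 of 5 had both above, beside 17.0%. ZNF483, which overlaps PTGR1 on the opposite strand, was at 0.110 and 0.287 RPKM in LV-TOX3 and 0.147 and 0.205 RPKM in LV-CON, far under PTGR1. AL135787.1, on that strand too, had 1 and 0 reads in LV-TOX3 and 1 and 1 reads in LV-CON.

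**Figure D4:**
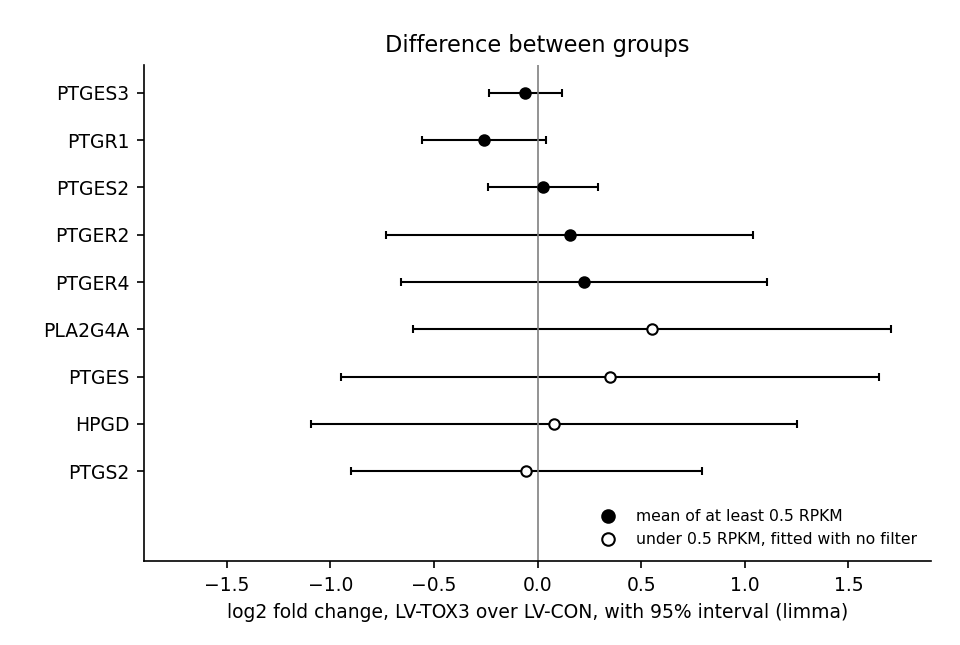
Log2 fold change of LV-TOX3 over LV-CON with its 95% interval from limma for 9 of the 10 genes, in order of level, without PTGS1, which had at most 2 reads in a library; filled points are genes whose mean reached 0.5 RPKM and open points are genes under it, fitted with no minimum. Each interval crosses 0; those of PTGES3, PTGES2 and PTGR1 are short, with PTGR1 reaching from -0.56 to 0.04, and those of the scarce genes are wider, with PLA2G4A reaching up to 1.70 and PTGS2, whose values all lie under the pseudocount, from -0.90 to 0.79.

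The intervals of the 3 abundant genes were short: that of PTGES3 ended at -0.24 and 0.12 and that of PTGES2 at -0.24 and 0.29. The intervals of PTGER2, PTGER4, PLA2G4A, PTGES and HPGD reached beyond 1 in log2 upward, so a change of that size could not be seen or set aside with these libraries. The interval of PTGS2 is narrowed by the pseudocount, which exceeds all its values, so it sets no such change aside either. In some genes the same library number was the higher in both groups. Library 1 was above library 2 in both groups for 3 of the 5 tested genes (PTGES3, PTGER4 and PTGR1), beside 27.5% of all tested genes. The same held for 4 of the 5 genes under the minimum (PLA2G4A, PTGS1, PTGS2 and PTGES), beside 15.8% of the genes above 0 under it. PTGER4 had 44 and 44 reads in LV-CON, so its order there (0.626 and 0.622 RPKM) came from the library totals alone. Reads were few in the 4 genes under the minimum, with 2 and 0 in each group for PTGS1 and at most 21 in a library for PLA2G4A. PTGES2 had the reverse order in both groups. No label says what the library number stands for.

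The rest of the pathway was described in 6 lists of related genes, by counts and medians only. They held 44 tested genes, of which 0 passed the adjusted p of limma and 2, ACSL4 and ADAMTS1, passed at an unadjusted p under 0.05, beside 6.80% of all tested genes. Of the 44, 7 had both LV-TOX3 libraries above both LV-CON libraries, beside 17.0% of all tested genes, and 9 had both below, beside 20.6%. Of 17 phospholipase and arachidonate handling genes found, 13 were tested, 6 of them positive and 7 negative in log2 fold change, and the median was -0.03, beside -0.01 over all tested genes. In 2 of the 13 the LV-TOX3 libraries lay above the LV-CON libraries and in 4 below. ACSL4, which prefers arachidonic acid when it links fatty acids to coenzyme A, was at 31.5 and 34.1 RPKM in LV-TOX3 and 27.8 and 24.7 RPKM in LV-CON. Its log2 fold change was 0.32 (SE 0.09, 95% interval 0.08 to 0.56, limma adjusted p = 0.678), with both LV-TOX3 libraries above both LV-CON libraries. ANXA1, an annexin known to inhibit phospholipase A2 and the most abundant of the list, was at 129 and 133 RPKM in LV-TOX3 and 139 and 147 RPKM in LV-CON, with a log2 fold change of -0.12 (SE 0.07, limma adjusted p = 0.775) and with both LV-TOX3 libraries below. PLA2G2A, singled out after its values were seen, was the only gene of this list at 0 reads in the 4 libraries. Other phospholipase A2 genes of the list were singled out likewise. PLA2G12A was at 9.37 and 12.7 RPKM in LV-TOX3 and 8.91 and 10.0 RPKM in LV-CON. PLA2G15, PLA2G6 and PLA2G4C had means over the 4 libraries of 2.85, 1.23 and 0.795 RPKM. PLA2G4B had at most 5 reads in a library and PLA2G10 at most 1.

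Beside the PGE synthases, 8 genes of other prostanoid synthases were found and 5 were tested. Their log2 fold changes were 3 positive and 2 negative, with a median of 0.06. The LV-TOX3 libraries lay above the LV-CON libraries in 1 gene and below in 1, beside 17.0% and 20.6% of all tested genes. AKR1B1, a reductase that can make prostaglandin F2-alpha, was the most abundant at 131 and 133 RPKM in LV-TOX3 and 144 and 134 RPKM in LV-CON, with both LV-TOX3 libraries below. CBR1, a carbonyl reductase that can convert PGE2 to prostaglandin F2-alpha, was at 22.5 and 20.2 RPKM in LV-TOX3 and 19.3 and 19.2 RPKM in LV-CON, with both LV-TOX3 libraries above, and its log2 fold change was 0.15 (SE 0.08, limma adjusted p = 0.791). The list of other prostanoid receptors, which also holds the receptor regulator PTGFRN, had 3 tested genes of 8 found, with a median of 0.15. Of the 3, 1 had both LV-TOX3 libraries above both LV-CON libraries, beside 17.0% of all tested genes. This was TBXA2R, the thromboxane receptor, at 1.50 and 1.44 RPKM in LV-TOX3 and 0.867 and 1.20 RPKM in LV-CON (log2 fold change 0.48, SE 0.23, limma adjusted p = 0.762). PTGFRN, a membrane protein named as a negative regulator of the prostaglandin F receptor, was at 15.9 and 13.3 RPKM in LV-TOX3 and 17.8 and 15.9 RPKM in LV-CON, and its groups overlapped narrowly. PTGFR, the prostaglandin F receptor, was singled out after its values were seen and was the most abundant receptor of the list. It was at 10.1 and 8.30 RPKM in LV-TOX3 and 9.07 and 7.53 RPKM in LV-CON, and its groups overlapped. PTGDR and PTGDR2, the prostaglandin D2 receptors, were singled out after their values were seen and had 0 reads in the 4 libraries.

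Transport and breakdown genes had 6 tested of 8 found, 2 positive and 4 negative, with a median of -0.02. The LV-TOX3 libraries lay above the LV-CON libraries in 1 gene and below in 2, beside 17.0% and 20.6% of all tested genes. ABCC4, an exporter of PGE2, was the most abundant at 5.44 and 5.09 RPKM in LV-TOX3 and 5.21 and 4.95 RPKM in LV-CON. ZADH2, also called PTGR3, a further prostaglandin reductase, was at 4.57 and 4.42 RPKM in LV-TOX3 and 5.29 and 5.07 RPKM in LV-CON. Its LV-TOX3 libraries were below its LV-CON libraries, with a log2 fold change of -0.20 (SE 0.09, 95% interval -0.44 to 0.04, limma adjusted p = 0.745). AKR1C1 was at 3.70 and 4.35 RPKM in LV-TOX3 and 4.78 and 4.41 RPKM in LV-CON (log2 fold change -0.19, SE 0.12, limma adjusted p = 0.817), also with both LV-TOX3 libraries below. The uptake carrier SLCO2A1, singled out after its values were seen, had 0 reads in the 4 libraries.

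In the lipoxygenase and epoxygenase branch, which turns the same arachidonic acid into leukotrienes and other products, 8 of 15 genes found were tested, 2 positive and 6 negative with a median of -0.01. EPHX1, an epoxide hydrolase, was the only 1 of the 8 without overlap, higher in LV-TOX3, beside 17.0% of all tested genes. It led with 80.2 and 75.5 RPKM in LV-TOX3 and 75.1 and 73.7 RPKM in LV-CON (log2 fold change 0.06, SE 0.07, limma adjusted p = 0.887). MGST3, a microsomal glutathione transferase, was at 11.1 and 10.3 RPKM in LV-TOX3 and 12.8 and 11.1 RPKM in LV-CON. ALOX5, ALOX12B and ALOX15, singled out after their values were seen, had 0 reads in the 4 libraries, which allows up to 3 reads in each. The other lipoxygenases of the list were singled out likewise. ALOX12, a tested gene, had 45 and 68 reads in LV-TOX3 and 69 and 58 reads in LV-CON. ALOXE3 had at most 5 reads in a library and ALOX15B at most 1.

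The ovulatory genes linked to PGE2 included 9 tested of 12 found, 6 positive and 3 negative, with a median of 0.08. The LV-TOX3 libraries lay above the LV-CON libraries in 1 gene and below in 2, beside 17.0% and 20.6% of all tested genes. ADAMTS1, a protease that cleaves versican in the ovulating follicle, was at 20.7 and 21.2 RPKM in LV-TOX3 and 27.5 and 27.8 RPKM in LV-CON. ADAMTS1 was named for the smallest p of this list, a choice that favors groups far apart for their spread. Its log2 fold change was -0.40 (SE 0.07, 95% interval -0.57 to -0.23), and the limma adjusted p was 0.655. AREG, an EGF-like growth factor that carries the luteinizing hormone signal within the follicle, was at 0.801 and 0.296 RPKM in LV-TOX3 and 1.54 and 0.883 RPKM in LV-CON, on 23 and 8 reads in LV-TOX3 and 45 and 26 reads in LV-CON. Both LV-TOX3 values of AREG were below both LV-CON values, and the log2 fold change was -1.09 (SE 0.52, 95% interval -2.44 to 0.26, limma adjusted p = 0.762). CTSL, the protease cathepsin L, was the most abundant of the list at 423 and 375 RPKM in LV-TOX3 and 380 and 322 RPKM in LV-CON, and its groups overlapped.

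**Figure D5:**
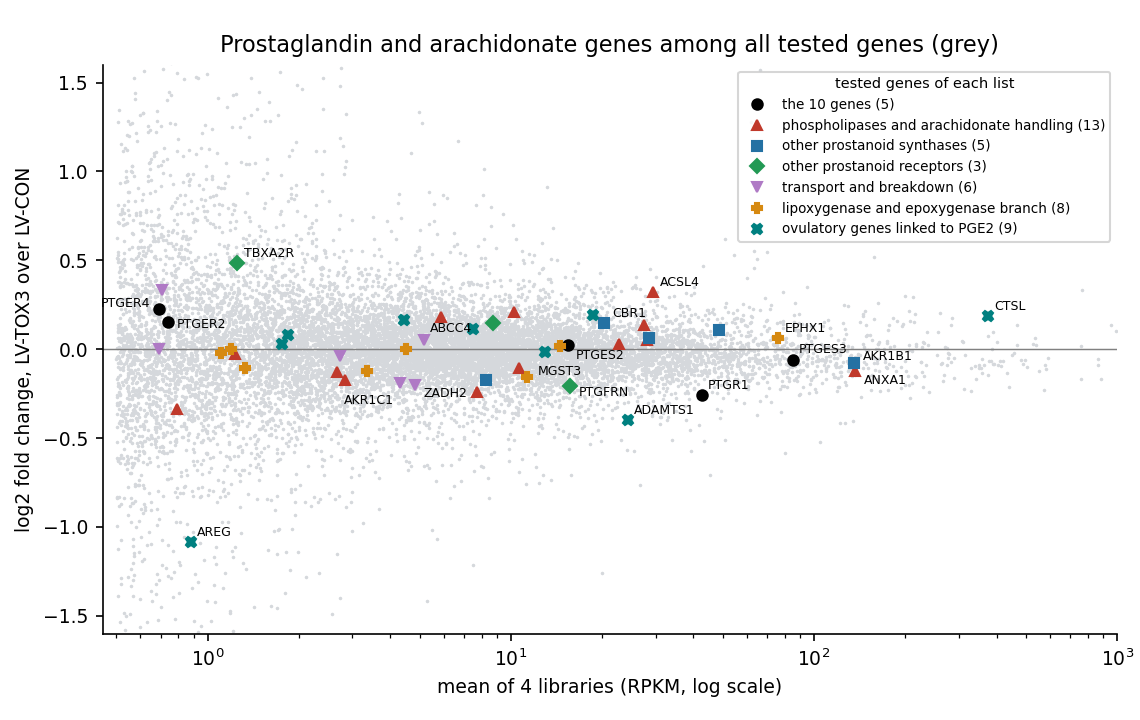
Log2 fold change of LV-TOX3 over LV-CON (y axis) against the mean RPKM of the 4 libraries (x axis, log scale) for the tested genes of each list in color, the 5 tested genes of the 10 in black and all tested genes in grey, of which 235 lie outside the drawn limits of 1.6 in log2 and 1000 RPKM. PTGES3 and PTGES2 sit close to the line at 0, PTGR1 lies under it among genes of its level, and AREG is the lowest of the named genes.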

How the data were processed

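RNA of 4 KGN libraries, 2 of LV-TOX3 and 2 of LV-CON, was analysed, with groups taken from the genotype label and columns matched by their names. The authors deposited RPKM values per gene, made from reads that were filtered with SOAPnuke and aligned to hg38 with HISAT2, with expression by expectation maximization and ComBat named against batch effects. Not given in the sources used here were the versions, whether the RPKM values were batch-adjusted, whether strand was used and which annotation release was counted. The study's own table of differential expression results was not used.

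In 29086 of 29088 genes with a value above 0 each value was a whole multiple of that of 1 read (within 1e-08 of the multiple), and reads were recovered from them with gene lengths matched within 1% to GENCODE v44 exon lengths where a multiple allowed it. Expectation maximization need not give whole reads. The implied length was that of GENCODE in 12996 genes, and among the 10 genes described the gap was at most 11.8% (PTGER4), which would move RPKM of that gene alike in every library. Recovery and the limma step were tested on simulated data. The libraries had 17413376 and 16403371 reads in LV-TOX3 and 17757132 and 17858746 reads in LV-CON. Poisson intervals and floors of 3 reads cover counting error only.

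Genes were tested with limma 3.58.1 (lmFit and eBayes with trend, two-sided) in R 4.3.3 on log2(RPKM + 0.1) over 14184 genes whose mean reached 0.5 RPKM, without a block, with Benjamini-Hochberg adjustment over these genes. Genes under that mean were taken from the same fit with no minimum. Tables were handled in Python 3.11.15 with pandas 2.3.3 and numpy 2.4.6, and intervals with scipy 1.17.1. The genes named are the 10 genes, TOX3, FOXL2, FSHR, CYP19A1 and INHA, the most abundant gene and the 2 tested genes with the smallest p of each list, and overlapping or like-named genes with at least 10 reads or 0.1 RPKM. A few others were named after their values were seen, as said beside them, and so were the other cell type markers given by name. The 10 genes, the lists, the markers and the motifs were chosen with earlier results of these data known. Alternatives were a pseudocount of 1, no minimum, a minimum mean of 1 RPKM, median ratio scaling, quantile normalization, the replicate block, limma-voom on the recovered reads, and each library left out in turn. Gene coordinates were taken from GENCODE v44 (hg38) and promoter sequences from RefSeq (GRCh38.p14).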

Additional observations from a re-analysis of the deposited data

How the results depend on the processing

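In each alternative that kept all libraries, 0 of the genes tested among the 10 passed the adjusted p. With no minimum on the mean, where all 10 were fitted, 0 of the 10 passed. The smallest adjusted p among those given a fold change was 0.283, for PTGR1 in the limma fit with the replicate block (log2 fold change -0.26). The same-numbered libraries share only a number in the labels, yet over the 14184 tested genes the difference of library 1 and library 2 in LV-TOX3 correlated with that in LV-CON at 0.19, a description across genes. With the replicate block the count of all genes past the adjusted p was 1, as without it, and the count past an unadjusted p of 0.05 and a log2 change of 0.3 was 1033, against 698 without it. With no minimum on the mean the count past the adjusted p was 0, so TOX3 then lost its call. The count past an unadjusted p of 0.05 and a log2 change of 0.3 was 1401 with no minimum. With each library left out in turn, the log2 fold change ranged from -0.29 to 0.18 for PTGS2, -0.0028 to 0.70 for PTGES, -0.088 to 0.14 for PTGES2, -0.14 to 0.45 for PTGER2, -0.016 to 0.46 for PTGER4, -0.31 to 0.47 for HPGD and -0.34 to 0.23 for INHA. That of PLA2G4A ranged from 0.28 to 0.83 and that of PTGR1 from -0.40 to -0.12, each of 1 sign. That of PTGES3, from -0.11 to -0.0095, also kept 1 sign. So did those of AREG (-1.68 to -0.49, and -0.52 with a pseudocount of 1), TBXA2R (0.27 to 0.70) and CBR1 (0.069 to 0.22). A lone library left in a group is assumed to vary like the other group. With all libraries kept, 184 of 184 values of the 28 named genes kept their sign, and with 1 left out 102 of 112 did. PTGS1, at or under the floor of 3 reads, was given no fold change. Depth limits PTGS1, PTGS2 and PTGES, which had under 10 reads in each library.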
